A study of Mus musculus with 44 samples.

Results

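The 9 genes described here, Arg1, Chil3, Retnla, Mrc1, Ccl17, Ccl24, Pdcd1lg2, Egr2 and Klf4, are widely used as markers of alternative activation, the state that macrophages enter under the cytokine IL4. They were chosen by name from the 24940 genes listed in each table, and all 9 were listed in every table. The data were RNA-seq counts from mouse bone marrow-derived macrophages (BMDMs), grown from the marrow of C57BL/6 mice 8 to 12 weeks old. The cell type label is the same for all samples, but the library names of the 4 RANKL libraries read Osteoclast in place of BMDM, and the study's methods describe a separate osteoclast culture. The data comprised 44 libraries in 22 groups of 2, spread over 4 tables. The largest table held cells of genotype NCoR flox/flox (WT) and NCoR flox/flox, LysMCre (NKO), which lack the corepressor NCoR, encoded by Ncor1, in myeloid cells. Both genotypes received vehicle (Veh), IL4, IFNb (interferon beta), PolyIC (poly I:C, a double-stranded RNA analog sensed by TLR3) or KLA (Kdo2 lipid A, a TLR4 agonist) for 6 h, or RANKL, the osteoclast-inducing cytokine, for 12 h. The other 3 tables held no IL4. The first was of wild-type cells under Veh, KLA or RGFP966_KLA, in which RGFP966 inhibits the deacetylase HDAC3. The next was of Pgc1b flox/flox cells with or without LysMCre, under Veh or KLA, where Cre removes the coactivator PGC1β. The last was of wild-type cells under DMSO_Veh, DMSO_KLA or TBK1i_KLA, in which an inhibitor of the kinase TBK1 was added. The flox controls carried no Cre, so the Cre transgene itself was part of each genotype comparison, and LysMCre was inserted at the Lyz2 locus.

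IL4 binds a receptor that contains IL4Rα and activates the kinases of the JAK family, which phosphorylate the transcription factor STAT6. STAT6 dimers then bind DNA and switch on a program linked to tissue repair, parasite defence and allergy. The markers occupy different places in this program. Egr2 and Klf4 are zinc finger transcription factors. Mrc1 is the mannose receptor CD206, a surface receptor that takes up glycoproteins, and Pdcd1lg2 is PD-L2, a ligand of the T cell inhibitory receptor PD-1. Arg1 is the enzyme arginase, which splits arginine into ornithine and urea. Chil3 (Ym1) is a secreted chitinase-like lectin and Retnla (RELMα) a secreted resistin-like protein. Ccl17 and Ccl24 are chemokines, ligands of CCR4 and CCR3 respectively.

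Gene counts per library ranged from 8323493 to 16783155, and levels are given as CPM (counts scaled to a common library size) after TMM scaling within each table. A library with 3 counts or fewer for a gene was treated as at the floor, which corresponded to 0.141 to 0.5 CPM. Replicates differed by more than sampling noise in all 22 groups and correlated at 0.9921 or more over genes. Nothing in the labels says whether replicates came from separate animals, so the p-values measure the spread between these libraries, which may be technical. Ncor1 averaged 165.6 ± 4.85 CPM in WT_Veh and 56.99 ± 0.837 in NKO_Veh, and 168.6 ± 17.5 in WT_IL4 and 54.4 ± 2.21 in NKO_IL4 (mean ± SD, n = 2), so the targeted gene was lower in the knockout at rest and with IL4. All 7 macrophage markers checked lay above the floor in every group. Lyz2, the locus of the Cre insertion, averaged 9205 ± 112 CPM in WT_Veh and 4602 ± 32 in NKO_Veh. Library names carry a date-like stamp that was shared by the Veh, IL4, IFNb and PolyIC groups of both genotypes, whereas WT_KLA, NKO_KLA and the RANKL groups each carried others. In bulk RNA, fewer cells that express a gene and less RNA per cell cannot be told apart.

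Promoter sequence was available for 7 of the 9 genes, in 11 windows of the 250 bases before a RefSeq start site (GRCm38.p6). They were searched on both strands for the palindrome TTCNNNNGAA, the spacing that STAT6 prefers, for TTCNNNGAA, the spacing of other STAT dimers, and for GCGTGGGCG (EGR), GAGGAAGT (PU.1) and, for the core promoter element bound by TBP, TATAAA. These motifs do not contain one another. The 4 genes with a match to any of these motifs are shown, and capitals mark the matches. Their responses to IL4 ranged from none above the floor to among the highest of the 9.
Chil3: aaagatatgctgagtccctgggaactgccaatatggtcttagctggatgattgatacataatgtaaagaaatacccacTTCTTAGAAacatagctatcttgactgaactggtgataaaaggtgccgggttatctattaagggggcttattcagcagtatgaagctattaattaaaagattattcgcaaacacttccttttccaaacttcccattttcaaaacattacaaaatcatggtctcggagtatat
Retnla: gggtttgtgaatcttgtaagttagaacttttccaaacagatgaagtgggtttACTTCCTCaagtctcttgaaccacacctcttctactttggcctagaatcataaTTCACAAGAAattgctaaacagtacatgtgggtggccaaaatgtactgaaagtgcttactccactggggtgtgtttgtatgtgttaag
Ccl17: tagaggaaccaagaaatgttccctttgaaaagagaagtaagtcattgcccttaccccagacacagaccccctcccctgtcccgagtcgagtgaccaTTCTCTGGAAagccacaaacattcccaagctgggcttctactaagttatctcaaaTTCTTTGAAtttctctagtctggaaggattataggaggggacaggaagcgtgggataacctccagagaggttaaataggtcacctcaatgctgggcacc
Pdcd1lg2: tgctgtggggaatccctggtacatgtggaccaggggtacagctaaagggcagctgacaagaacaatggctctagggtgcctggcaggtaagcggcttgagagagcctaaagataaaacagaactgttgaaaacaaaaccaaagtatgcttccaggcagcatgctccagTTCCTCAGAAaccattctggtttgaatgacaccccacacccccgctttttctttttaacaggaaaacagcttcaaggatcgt

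Chil3 (chr3:106167565-106167814, minus strand) held TTCNNNGAA 172 to 164 bases before the start. Retnla (chr16:48842359-48842551, plus strand, printed up to the base before the counted transcript) held TTCNNNNGAA 145 to 136 bases before the RefSeq start, the reverse complement of GAGGAAGT 198 to 191 bases before it and, in the bases not printed, TATAAA 30 to 25 bases before it. Ccl17 (chr8:94810203-94810452, plus strand) held TTCNNNNGAA 154 to 145 and TTCNNNGAA 99 to 91 bases before its start. Pdcd1lg2 (chr19:29410669-29410918, plus strand) held TTCNNNNGAA 82 to 73 bases before its start. The windows of Mrc1, Egr2 and Klf4 held none of the 5 motifs. Among 32851 windows of all genes, TTCNNNNGAA occurred in 5.85%, TTCNNNGAA in 7.02%, GCGTGGGCG in 0.536%, GAGGAAGT in 2.44% and TATAAA in 12.4%. A match describes letters, not binding, and enhancers were not searched. The counted transcripts of these 4 genes span chr3:106147554-106167564 (minus strand) for Chil3, chr16:48842552-48844461 (plus) for Retnla, chr8:94810453-94812036 (plus) for Ccl17 and chr19:29410919-29472927 (plus) for Pdcd1lg2 in mm10. Those of the others span chr10:24915207-24927470 (minus) for Arg1, chr2:14229414-14332023 (plus) for Mrc1, chr5:135569935-135573049 (minus) for Ccl24, chr10:67537869-67542188 (plus) for Egr2 and chr4:55527137-55532475 (minus) for Klf4.

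To ask how the markers responded to IL4, WT cells given IL4 were compared with WT cells given vehicle. Of the 9 genes, 8 rose (edgeR's quasi-likelihood test, Benjamini-Hochberg adjusted p below 0.05 and fold change above 1.5). Of all 13407 genes tested in this table, 6.63% rose and 13.1% changed in either direction. Ccl17, the exception, stayed at the floor, with 1 and 3 counts in the IL4 libraries and 0 in both vehicle libraries. Most effector genes started from nearly no reads, whereas Mrc1, Egr2 and Klf4 rose from levels that were already measurable.

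Arg1 stood at 83.8 and 67.7 CPM in the WT_IL4 libraries, against 1 and 0 counts with vehicle, which made it at least 368-fold higher. Retnla stood at 55.6 and 57.5 CPM against 1 and 0 counts, at least 275-fold higher. Both genes were therefore switched on from the detection limit. Retnla was the most restricted of the 9: it had between 707 and 954 counts in the 4 IL4 libraries and at most 1 count in each of the other 40 libraries of the series, 36 of which had 0. Chil3 was at 66.0 and 74.3 CPM with IL4 and at 0.894 and 0.684 with vehicle, an increase of 87.9-fold (log2 fold change 6.46 ± 0.16 SE, adjusted p = 6.13e-41). Chil3 has close paralogs, such as Chil4, and how reads shared with them were counted is not given, so its level is less certain. Pdcd1lg2 was at 58.9 and 61.1 CPM against 0.550 and 0.547, an increase of 107-fold (6.75 ± 0.21, adjusted p = 1.34e-35). For these 4 genes the IL4 libraries lay far above all vehicle libraries.

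Mrc1 was the most abundant marker, at 2138 and 2218 CPM with IL4 and 249 and 265 with vehicle. Its increase was 8.49-fold (log2 fold change 3.09 ± 0.061 SE, adjusted p = 6.3e-45). Egr2 rose 6.06-fold, from 56.7 and 47.9 to 311 and 323 CPM (2.60 ± 0.11, adjusted p = 6.85e-12). Klf4 rose 5.14-fold, from 11.2 and 10.6 to 58.9 and 53.3 CPM (2.36 ± 0.1, adjusted p = 1.02e-28). The 2 transcription factors thus shared a response of similar size on the log2 scale. Ccl24 had the lowest level of the 8 that rose, although its 11.2-fold change exceeded those of Mrc1, Egr2 and Klf4. It was at 2.99 and 1.84 CPM against 0.275 and 0.137 (3.49 ± 0.55, adjusted p = 3.95e-07), and its 38 and 24 counts with IL4 left it less precisely measured than the others.

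Per transcript length, which allows genes to be compared with each other, the order in WT_IL4 began with Mrc1 at 404 to 420 RPKM, followed by Egr2 at 105 to 109 and Retnla at 93.9 to 97.1. Arg1 (46.1 to 57.1 RPKM) and Chil3 (43.3 to 48.7) overlapped, as did Klf4 (17.6 to 19.4) and Pdcd1lg2 (17.3 to 17.9). Ccl24 lay at 1.43 to 2.31 RPKM and Ccl17 at 0.154 to 0.453. A marker with a very large fold change, such as Pdcd1lg2, could thus be lower in level than one with a small fold change, such as Egr2.

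**Figure D1:**
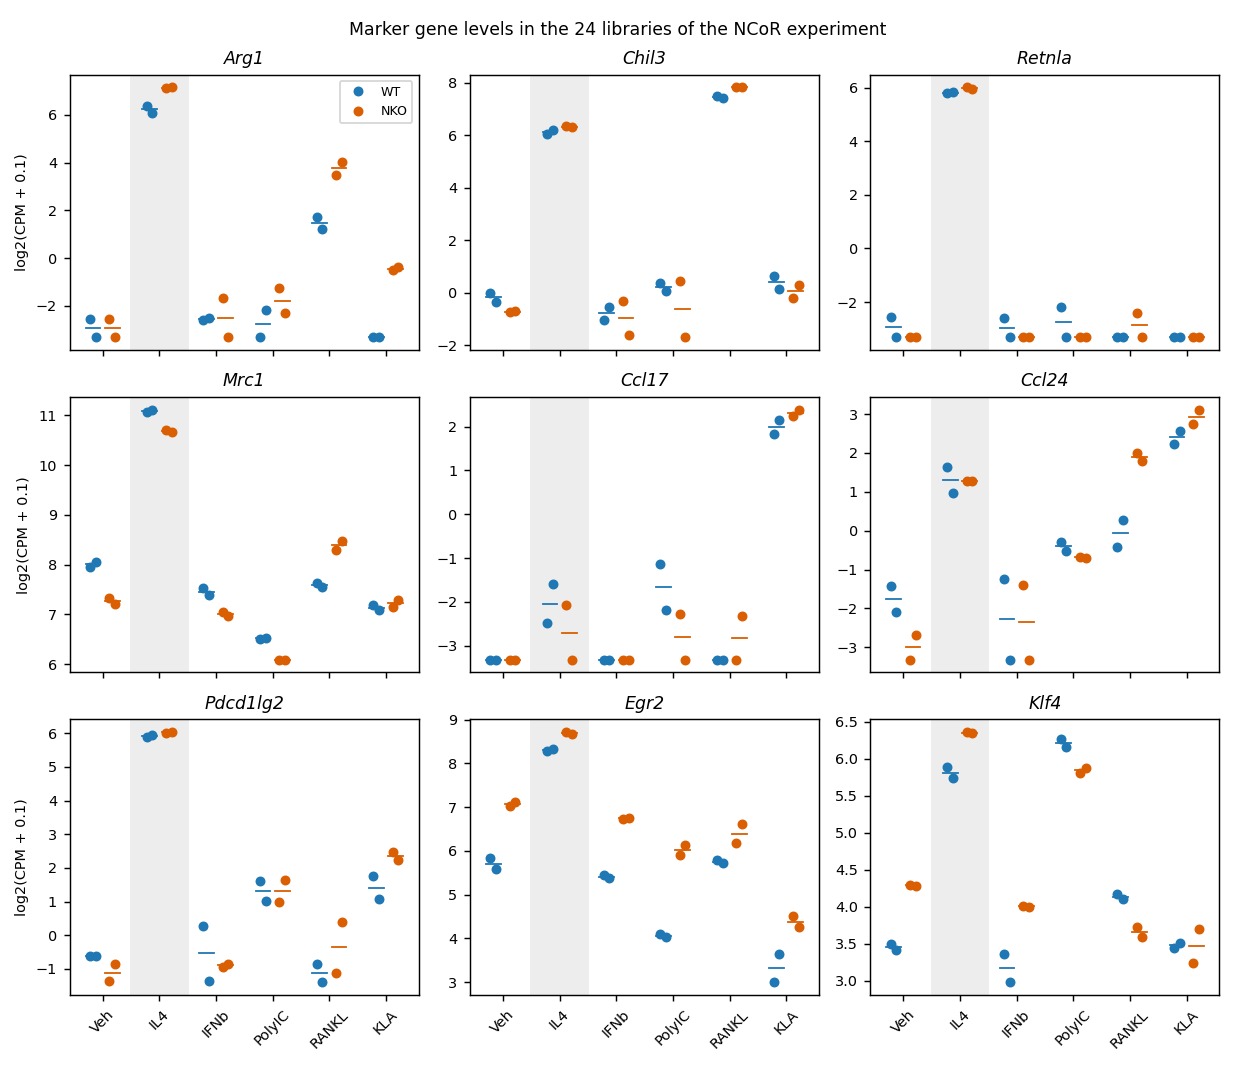
Levels of the 9 genes in the 24 libraries of the WT and NKO cells, 1 panel per gene, with treatments on the horizontal axis (the IL4 column shaded) and log2(CPM + 0.1) on the vertical axis, which differs between panels. Points are libraries, with WT in blue and NKO in orange, and lines are means of 2. Retnla leaves the bottom of its panel only with IL4, Chil3 is highest with RANKL (173 to 229 CPM), and Ccl17 is above the floor only with KLA (3.44 to 5.14 CPM).

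The same comparison in NKO cells addressed whether the response requires NCoR. Again 8 of the 9 genes rose, against 6.71% of all genes tested that rose and 12.1% that changed in either direction. Arg1 was at least 732-fold higher and Retnla at least 328-fold higher than in NKO_Veh. Chil3 rose by a log2 fold change of 7.26 ± 0.16 (adjusted p = 5.44e-43) and Pdcd1lg2 by 7.38 ± 0.22 (adjusted p = 4.58e-37). Mrc1 rose by 3.42 ± 0.063 (adjusted p = 8.91e-47), Klf4 by 2.07 ± 0.088 (adjusted p = 4.64e-29) and Egr2 by 1.63 ± 0.098 (adjusted p = 9.05e-10). Ccl24 was at least 12.1-fold higher, and Ccl17 stayed at the floor with 2 and 0 counts.

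**Figure D2:**
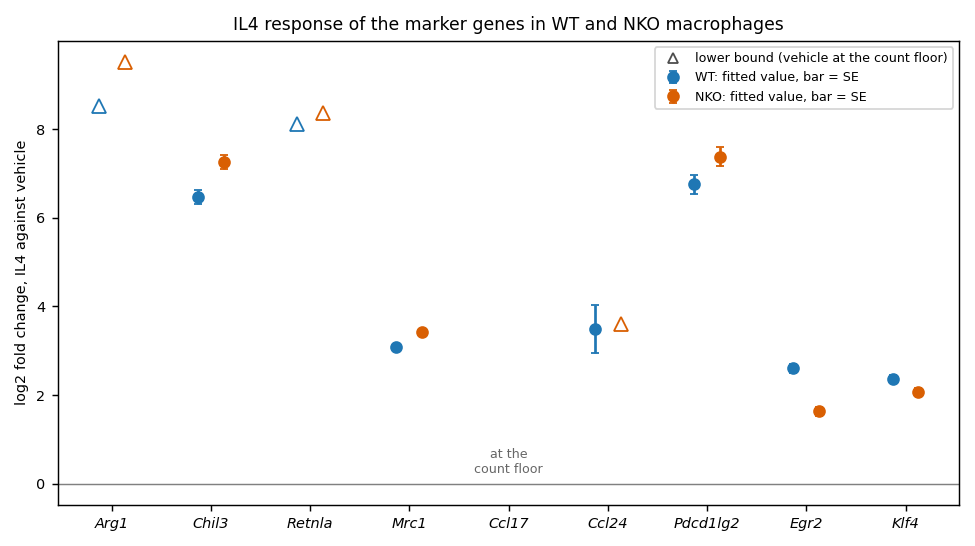
Log2 fold change of IL4 against vehicle for each gene in WT (blue) and NKO (orange) cells, with bars of 1 SE. Open triangles are lower bounds, drawn where both vehicle libraries were at the count floor, and Ccl17 is left blank because all its libraries were at the floor. Egr2 is the gene whose orange point lies clearly below its blue one (1.63 against 2.60).

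With IL4 present, Arg1 was the only marker of the 9 that differed between genotypes by both criteria, against 4.24% of all genes tested. Its level was 139 and 143 CPM in NKO_IL4 and 83.8 and 67.7 in WT_IL4, so that both knockout libraries lay above both WT libraries. The increase was 1.87-fold (log2 fold change 0.90 ± 0.095, adjusted p = 1.58e-09) and was called under every alternative setting tried, with values from 0.75 to 1.06. A further 3 genes passed the adjusted p but not the fold change of 1.5. Klf4 was at 82.1 and 81.3 CPM in NKO_IL4 against 58.9 and 53.3 (0.54 ± 0.078, adjusted p = 2.44e-07), and without WT_IL4 replicate 1 its value of 0.62 passed both. Egr2 was at 421 and 410.1 CPM against 311 and 323 (0.39 ± 0.094, adjusted p = 0.00842). Mrc1 was lower, at 1673 and 1619 CPM against 2138 and 2218 (-0.40 ± 0.056, adjusted p = 8.97e-08). For each of the 3 the libraries of the genotypes did not overlap.

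The remaining markers gave values that missed the adjusted p. Chil3 was at 81.0 and 78.5 CPM in NKO_IL4 against 66.0 and 74.3 in WT_IL4 (0.18 ± 0.073, adjusted p = 0.0758). Retnla was at 65.2 and 61.4 CPM against 55.6 and 57.5 (0.16 ± 0.10, adjusted p = 0.303), and Pdcd1lg2 at 64.5 and 65.5 against 58.9 and 61.1 (0.12 ± 0.10, adjusted p = 0.511). For these 3 genes both NKO libraries lay above both WT libraries, by differences larger than 1 SE that missed the adjusted p. Ccl24 was at 2.33 and 2.34 CPM against 2.99 and 1.84 and overlapped (-0.05 ± 0.34, adjusted p = 0.958), and the sign of its difference depended on WT_IL4 replicate 1, without which it was 0.34.

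Whether the IL4 response itself differed between genotypes was tested with an interaction term. Egr2 was the only member called, against 0.604% of all genes tested. That share is 81 genes and rests in part on 1 library, since 280 genes were called without WT_Veh replicate 1, while Egr2 was called with each library left out. Its response in NKO cells minus that in WT cells was -0.97 ± 0.15 on the log2 scale (adjusted p = 0.00169), and the range over all settings was -1.10 to -0.85. Egr2 started higher in the knockout, at 131 and 138 CPM in NKO_Veh against 56.7 and 47.9 in WT_Veh, and also ended higher. Mrc1 had a difference of 0.33 ± 0.082 (adjusted p = 0.00972) that fell short of the fold threshold. For Klf4 it was -0.29 ± 0.14 (adjusted p = 0.266). Arg1 had a difference of 0.98 ± 2.4 (adjusted p = 0.894), since its vehicle libraries held 1 or 0 counts, and the value changed sign without WT_Veh replicate 1, to -1.12.

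At rest, 3 members differed between NKO_Veh and WT_Veh, against 6.21% of all genes tested. Egr2 rose by 1.36 ± 0.11 (2.57-fold, adjusted p = 1.54e-07). Klf4 rose from 11.2 and 10.6 to 19.6 and 19.4 CPM (0.84 ± 0.12, adjusted p = 4.51e-08). Mrc1 fell from 249 and 265 to 161 and 147 CPM (-0.74 ± 0.061, adjusted p = 3.87e-15). With IL4 these 3 genes had differences of the same sign, each under the fold threshold, in libraries separate from those with vehicle.

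Markers of other cell types were then summed in the same libraries. The 4 fibroblast markers, all above the floor, summed to 83.3 to 104 CPM in WT_IL4, 72.4 to 80.1 in WT_Veh, 60 to 63.5 in NKO_IL4 and 53.4 to 55 in NKO_Veh, so they were higher in WT than in NKO with and without IL4. The 7 macrophage markers summed to 14353 to 14497 CPM in WT_IL4 and 11304 to 11534 in NKO_IL4. This sum includes Lyz2, the locus of the Cre insertion, which averaged 6204 ± 64.8 CPM in WT_IL4 and 3684 ± 94.4 in NKO_IL4. The 6 neutrophil markers summed to 2.31 to 3.3 CPM in WT_IL4, 3.89 to 5.33 in NKO_IL4 and 2.87 to 6.88 in WT_Veh. The 3 eosinophil markers reached at most 0.307 CPM in WT_IL4. Il4 and Il13 were at 0 in both WT_IL4 libraries. The NK cell and innate lymphoid list had 1 of 3 genes above the floor in WT_IL4 and in NKO_IL4. It summed to 2.91 to 2.92 CPM in WT_IL4, 1.3 to 2.41 in NKO_IL4 and 0.0684 to 0.0688 in WT_Veh. In NKO_IL4 Ncr1 and Klrb1c were at 0, so the sum there was that of Gata3 alone. The part of these lists in the results for the 9 genes was not tested.

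The other ligands of the same stamp were then compared with IL4 directly. Against WT_IFNb, the same 8 genes were higher with IL4, where 17.6% of all genes tested changed in either direction. Against WT_PolyIC, 7 genes were higher with IL4, where the corresponding share was 47.4%. The gene that dropped out was Klf4, which was at 76.6 and 71.6 CPM with PolyIC and 58.9 and 53.3 with IL4 (IL4 minus PolyIC -0.40 ± 0.083, adjusted p = 2.53e-05). Its difference changed sign to 0.24 when libraries were scaled to their totals without TMM, a setting that moved the median of all genes to 0.72 from 0.082.

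With IFNb no member was called between WT_IFNb and WT_Veh by edgeR's quasi-likelihood test (0 of 9) or by DESeq2, against 6.47% of all genes tested, and 3 of the 9 had an unadjusted p below 0.05. Mrc1 was nearest, at 185 and 167 CPM against 249 and 265 (-0.54 ± 0.06, adjusted p = 7.79e-11), and it was called without WT_Veh replicate 1 (-0.59), without WT_IFNb replicate 1 (-0.62) or with library totals (-0.65).

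PolyIC divided the markers. Against vehicle 47.2% of all genes tested changed, and 5 members were called. Klf4 rose 6.79-fold (log2 fold change 2.76 ± 0.1, adjusted p = 4.87e-33). Pdcd1lg2 rose from 0.550 and 0.547 to 2.98 and 1.92 CPM (2.14 ± 0.43, adjusted p = 1.64e-05), far under its level with IL4. Mrc1 fell from 249 and 265 to 90.7 and 92.2 CPM (-1.49 ± 0.066, adjusted p = 1.65e-28), and Egr2 fell from 56.7 and 47.9 to 17.02 and 16.2 (-1.65 ± 0.17, adjusted p = 1.95e-07). So the 2 factors that both rose with IL4 moved in opposite directions with PolyIC. The Ccl17 call rested on 3 and 1 counts against 0 and 0, all at the floor, and was lost without WT_PolyIC replicate 1 (adjusted p = 0.199), WT_Veh replicate 1 (0.0896) or WT_Veh replicate 2 (0.0888). Scaling to library totals moved the median of all genes to -0.71 from -0.071 and changed the sign of none of these 5.

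RANKL was given for 12 h and its libraries carry another stamp than WT_Veh, and their names read Osteoclast, so the ligand, the time, the culture and the stamp cannot be told apart in that comparison. Against WT_Veh 43.8% of all genes tested changed, and 4 members rose. Chil3 reached its highest levels of the whole series, at 179.7 and 173 CPM in WT_RANKL and 229 and 227 in NKO_RANKL. The WT level was 221-fold above vehicle (7.79 ± 0.14, adjusted p = 2.1e-48) and lay above the 66.0 and 74.3 CPM of WT_IL4. Arg1 was at 3.20 and 2.23 CPM, at least 13.2-fold higher than vehicle but far under its level with IL4. Klf4 rose from 11.2 and 10.6 to 17.9 and 17.1 CPM (0.68 ± 0.12, adjusted p = 1.01e-06). Ccl24 rose from 4 and 2 counts to 10 and 16 (2.04 ± 0.67, adjusted p = 0.00569), a call that was lost without WT_Veh replicate 2 (1.64) or WT_RANKL replicate 2 (1.62). Retnla had 0 counts in both libraries. The 6 neutrophil markers summed to 1042 to 1138 CPM in WT_RANKL against 2.87 to 6.88 in WT_Veh, with all 6 above the floor, the 3 eosinophil markers to 6.93 to 7.04 CPM against at most 0.206, and the 4 fibroblast markers to 171 to 190 CPM against 72.4 to 80.1. Their part in the Chil3, Arg1, Klf4 and Ccl24 levels was not tested.

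NKO and WT cells were then compared over all 6 treatments. Egr2 was higher in NKO than in WT in 6 of 6, with no overlap of libraries in any, and was called in 5. The KLA difference cannot be credited to genotype alone, since those 2 groups also differ in stamp and sex, as described below. The differences were 1.36 with vehicle, 1.34 ± 0.12 with IFNb (adjusted p = 5.25e-07), 1.97 ± 0.17 with PolyIC (adjusted p = 2.57e-07), 0.65 ± 0.12 with RANKL (adjusted p = 0.000495) and 1.05 ± 0.25 with KLA (adjusted p = 0.00161). With PolyIC the libraries were at 60.1 and 70.0 CPM in NKO and 17.02 and 16.2 in WT, so the knockout level under PolyIC exceeded that of resting WT cells. The RANKL call for Egr2 was lost without NKO_RANKL replicate 2 (0.42) and with library totals (0.55).

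Klf4 was higher in NKO_IFNb than in WT_IFNb, at 16.1 and 15.8 against 10.2 and 7.78 CPM (0.82 ± 0.13, adjusted p = 9.27e-07), so 2 members were called there against 3.8% of all genes tested. With PolyIC its order was the opposite, at 56.1 and 58.6 CPM in NKO and 76.6 and 71.6 in WT (-0.37 ± 0.086, adjusted p = 0.000781, under the fold threshold). Egr2 was the 1 member called with PolyIC, against 5.93% of genes. Chil3 joined it without NKO_PolyIC replicate 1 (-2.32), and its sign changed without NKO_PolyIC replicate 2 (0.23), since those libraries held 12 and 2 counts.

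The interaction tests addressed these responses directly. For Klf4 the PolyIC response in NKO minus that in WT was -1.21 ± 0.14 (adjusted p = 7.98e-09), the 1 member called against 3.24% of all genes tested, and lay between -1.26 and -1.12 under every setting tried. Its level went from 19.6 and 19.4 to 56.1 and 58.6 CPM in NKO and from 11.2 and 10.6 to 76.6 and 71.6 in WT. For Egr2 the PolyIC interaction was 0.61 ± 0.21 (adjusted p = 0.0897), and it was called without WT_Veh replicate 2 (0.72) and under 4 other settings. No member was called for the interaction with IFNb by edgeR's quasi-likelihood test (0 of 9) or by DESeq2, against 0.604% of genes, and 1 had an unadjusted p below 0.05. These 81 genes became 256 without WT_Veh replicate 1, and 36 to 53 without WT_Veh replicate 2, either NKO_Veh replicate, WT_IFNb replicate 1 or NKO_IFNb replicate 2. For IFNb the Egr2 interaction was -0.02 ± 0.16 and that of Klf4 -0.02 ± 0.17.

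Arg1 was also called between genotypes with RANKL, which like IL4 brought it clear of the floor in both genotypes. With RANKL it was at 11.2 and 16.2 CPM in NKO and 3.20 and 2.23 in WT (2.31 ± 0.21, adjusted p = 7.55e-12, 4.96-fold), and values ranged from 2.03 to 2.60 over the settings. Of the 9 genes, 4 rose in NKO_RANKL over WT_RANKL, against 13.2% of all genes tested that changed. Mrc1 rose from 199 and 188 to 313 and 357 CPM (0.79 ± 0.06, adjusted p = 1.08e-16), opposite to its direction at rest. Ccl24 rose from 0.654 and 1.12 to 3.89 and 3.34 CPM (2.03 ± 0.39, adjusted p = 2.24e-05). Egr2 was the fourth. Pdcd1lg2 joined them without NKO_RANKL replicate 1 (1.68), and its sign changed without NKO_RANKL replicate 2 (-0.04). The 6 neutrophil markers summed to 1458 to 1537 CPM in NKO_RANKL and 1042 to 1138 in WT_RANKL, the 3 eosinophil markers to 12.9 to 15 against 6.93 to 7.04, and the 4 basophil and mast cell markers to 6.27 to 6.59 against 1.39 to 2.03, with all of them above the floor in NKO_RANKL. Their part in these 4 differences was not tested.

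Under KLA the 2 genotypes differ in stamp, and Y-linked transcripts were present in both NKO_KLA libraries and Xist in both WT_KLA libraries, so genotype, sex and stamp cannot be told apart. In that comparison 40% of all genes tested changed, and 3 members were called, of which Egr2 was 1. Pdcd1lg2 was at 5.41 and 4.57 CPM in NKO_KLA and 3.27 and 2.00 in WT_KLA (0.92 ± 0.31, adjusted p = 0.00818). The call was lost without WT_KLA replicate 2 (0.61) or NKO_KLA replicate 1 (0.79). Arg1 had 7 and 7 counts against 0 and 0, at least 1.28-fold higher, and was no longer called without either WT_KLA library (adjusted p = 0.0646 and 0.0624). The 5 dendritic cell markers summed to 24.8 to 31.4 CPM in NKO_KLA and 4.5 to 4.75 in WT_KLA, with 4 and 2 of them above the floor, and the 4 fibroblast markers to 5.9 to 8.42 CPM against 0.655 to 1.33. Their part was not tested.

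**Figure D3:**
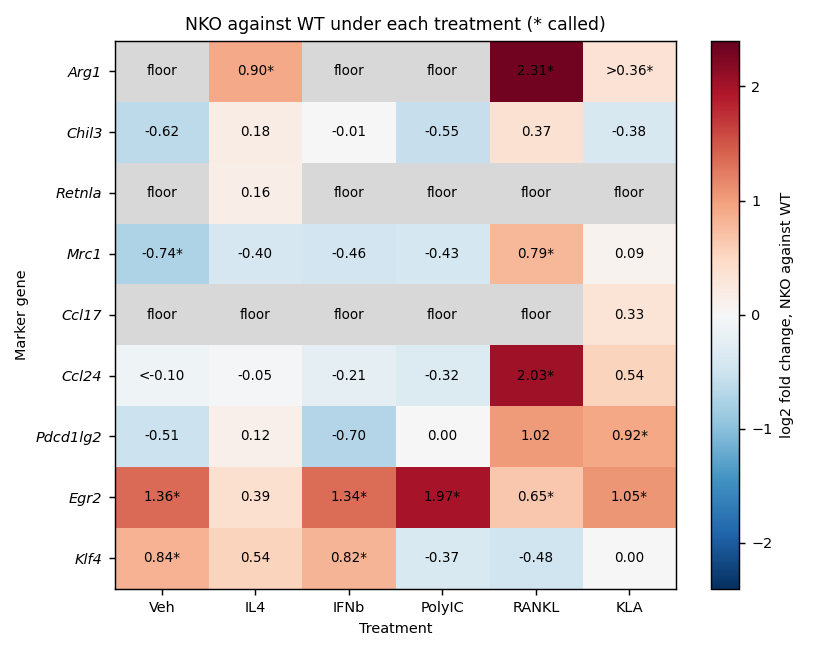
Log2 fold change of NKO against WT for each gene (rows) under each treatment (columns), coloured from blue (lower in NKO) to red (higher in NKO), with an asterisk for genes called. Grey cells are pairs at the count floor, and values marked > or < are bounds. The Egr2 row is red in all 6 columns (0.39 to 1.97). The Arg1 row is called with IL4, RANKL and KLA. With KLA only its NKO libraries were above the floor. For every gene in the KLA column, genotype, sex and stamp cannot be told apart.

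KLA was applied to control cells in all 4 tables, which allows the markers to be followed under TLR4 stimulation in separate experiments. Y-linked transcripts were present in the Pgc1b flox libraries, and Xist in the KLA and vehicle controls of the other tables. Levels in the Pgc1b table thus differ from the others in sex as well as in stamp and genotype, which cannot be told apart. Of all genes tested, 57.8% changed in WT_KLA against WT_Veh, 60% in KLA against Veh, 48.5% in Pgc1b_flox_KLA against Pgc1b_flox_Veh and 58.9% in DMSO_KLA against DMSO_Veh. Members called numbered 5 of 9, 6 of 7, 5 of 6 and 4 of 5 tested, so these shares have to be read against that background. In the first of these the ligand and the stamp cannot be told apart, while in the other 3 both groups share a stamp. The 4 fibroblast markers summed to 0.655 to 1.33 CPM in WT_KLA and 72.4 to 80.1 in WT_Veh, 1.98 to 2.2 in KLA and at most 0.515 in Veh, 0.628 to 1.66 in Pgc1b_flox_KLA and at most 0.0811 in Pgc1b_flox_Veh, and 35.9 to 38.6 in DMSO_KLA and 40.4 to 41.9 in DMSO_Veh. Their part in the changes described next was not tested.

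The chemokines rose and the receptor and Egr2 fell. Ccl17, which IL4 did not bring above the floor, was at 3.44 and 4.33 CPM in WT_KLA, 1.43 and 1.57 in KLA, 26.6 and 24.5 in Pgc1b_flox_KLA and 12.6 and 11.5 in DMSO_KLA, with 0 counts in every matching vehicle library. It was at least 18.9-fold, 10.2-fold, 115-fold and 65.2-fold higher, in that order. Ccl24 also rose in each table, by log2 fold changes of 4.59 ± 0.52 in WT_KLA (adjusted p = 1.17e-11) and 5.04 ± 0.36 in DMSO_KLA (adjusted p = 2.74e-44). The latter depended on the 0 and 8 counts of DMSO_Veh, with 4.04 without replicate 1 and, against 0 counts alone and thus no bound, 9.49 without replicate 2. Ccl24 was at least 15-fold higher in KLA and at least 24.6-fold higher in Pgc1b_flox_KLA. In the table that holds both ligands, both chemokines had higher levels in WT_KLA than in WT_IL4, for Ccl24 4.58 and 5.83 against 2.99 and 1.84 CPM. These groups were not tested against each other, and they carry different stamps, so ligand and stamp cannot be told apart.

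Mrc1 fell in 4 of 4 tables, by log2 fold changes between -1.93 and -0.87. In DMSO_KLA it was at 46.7 and 52.4 CPM against 190.1 and 187 with vehicle (-1.93 ± 0.062, adjusted p = 3.89e-210). Egr2 fell in 4 of 4 as well, between -2.37 and -1.32. In WT_KLA it was at 7.86 and 12.3 CPM against 56.7 and 47.9 (-2.37 ± 0.21, adjusted p = 2.29e-08). Pdcd1lg2 rose in the 3 tables in which it was tested, by 2.25 ± 0.46 in WT_KLA (adjusted p = 1.84e-05) and 2.36 ± 0.39 in KLA (adjusted p = 7.43e-08), and was at least 7.66-fold higher in Pgc1b_flox_KLA. Its highest level in these KLA controls was 3.54 CPM, in KLA replicate 2, against 58.9 and 61.1 in WT_IL4.

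Klf4 had no common direction under KLA. It rose in KLA against Veh, from 6.51 and 6.37 to 13.0 and 10.2 CPM (0.84 ± 0.17, adjusted p = 6.39e-06), but with library totals the difference was 0.07. It was 0.02 ± 0.16 in WT_KLA, where library totals gave -0.71, a called decrease. It was 0.43 ± 0.14 in DMSO_KLA (adjusted p = 0.00225, under the fold threshold), where they gave -0.34. In Pgc1b_flox_KLA it was -0.48 ± 0.16 (adjusted p = 0.00965, under the fold threshold), and it was called without Pgc1b_flox_Veh replicate 2 (-0.61) or with library totals (-1.18). That scaling moved the median of all genes to -0.87 in WT_KLA and -0.83 in KLA, from -0.14 and -0.067. Arg1, Chil3 and Retnla had at most 4, 15 and 0 counts in any of these KLA controls.

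Between RGFP966_KLA and KLA, which differ in the HDAC3 inhibitor, 5 of 7 members tested changed, against 25.4% of all genes tested. Per the study's methods RGFP966 was added with the serum starvation that preceded KLA, and no group had RGFP966 without KLA. An effect on resting levels therefore cannot be told apart from an effect on the KLA response. Egr2 rose from 14.2 and 16.6 to 42.6 and 38.8 CPM (1.39 ± 0.1, adjusted p = 2.53e-20), which placed it between KLA and the 81.3 and 76.7 CPM of vehicle. Klf4 fell from 13.0 and 10.2 to 5.67 and 4.95 CPM (-1.12 ± 0.19, adjusted p = 2.98e-07). Ccl24 fell from 30 and 19 counts to 4 and 0 (-3.80 ± 0.69, adjusted p = 2.09e-06), and its size depended on 1 library: it was -2.86 without RGFP966_KLA replicate 2, and the -8.08 without replicate 1 was fitted against a single library at 0 counts and is no bound. Mrc1 was at 160.4 and 152 CPM against 160.0 and 153 (0.00 ± 0.064, adjusted p = 0.972).

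Ccl17 fell from 15 and 19 counts to 4 and 7 (-1.86 ± 0.59, adjusted p = 0.00617) and Pdcd1lg2 from 3.06 and 3.54 to 1.33 and 2.03 CPM (-0.98 ± 0.35, adjusted p = 0.0152). Both calls rest on few counts. For Ccl17 the call was lost with DESeq2 (-1.94, adjusted p = 0.0575), without KLA replicate 2 (-1.80) and without RGFP966_KLA replicate 1 (-1.50). Pdcd1lg2 lost its call under the same 3 settings (-1.05, -0.88 and -0.71). RGFP966_KLA replicate 2 carries another stamp than the rest of its table, and leaving it out ended no member's call. The 6 neutrophil markers summed to 21 to 22.4 CPM in RGFP966_KLA and 4.68 to 8.15 in KLA, with 3 above the floor in each, Ly6g, Mpo and Elane at 0 in both, and their part in these 5 differences was not tested.

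In Pgc1b flox/flox cells, LysMCre changed no member at rest by edgeR's quasi-likelihood test (0 of 6) or by DESeq2, against 0.303% of all genes tested (37 genes, or 22 without Pgc1b_flox_Veh replicate 1), and 2 of the 6 had an unadjusted p below 0.05. Under KLA 3 of 6 members changed, against 26.1% of genes. Mrc1 rose from 122 and 136 to 241 and 259 CPM (0.96 ± 0.073, adjusted p = 2.02e-13). With vehicle it was at 251 and 232 CPM in the flox cells and at 292 and 277 in the Cre cells. Its level in the Cre cells was thus lower with KLA than with vehicle, without overlap, a difference that was not tested. Klf4 fell from 17.3 and 16.3 to 6.71 and 6.63 CPM (-1.33 ± 0.19, adjusted p = 4.68e-07). Pdcd1lg2 fell from 11 and 18 counts to 0 and 1, at least 5.86-fold lower. Ccl17 (24.8 and 26.6 against 26.6 and 24.5 CPM), Ccl24 (4.57 and 5.52 against 6.55 and 4.40) and Egr2 (48.9 and 42.4 against 44.3 and 47.1) overlapped between the genotypes. The 7 macrophage markers summed to 9973 to 9987 CPM in Pgc1b_flox_Cre_KLA and 15224 to 15448 in Pgc1b_flox_KLA. This sum includes Lyz2, the locus of the Cre insertion, which averaged 4461 ± 99 CPM against 8166 ± 172. The 6 neutrophil markers summed to 1.61 to 2.33 against 4.02 to 6.03 CPM, and the part of these lists was not tested.

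Chil3 was not tested in this table because of its low counts. It had 0 counts in all 4 Pgc1b_flox_Cre libraries, against 3 and 5 in Pgc1b_flox_Veh and 15 and 7 in Pgc1b_flox_KLA, so that it was at least 4.2-fold lower with Cre under KLA. When it entered the test, with no filter on low counts or with 1 library left out (Pgc1b_flox_KLA replicate 2 or either Pgc1b_flox_Cre_KLA replicate), it was called. This singling out was made after its values were seen.

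Between TBK1i_KLA and DMSO_KLA, 3 of 5 members tested changed, against 33.3% of all genes tested. The TBK1 inhibitor was likewise added before KLA, and no group had it without KLA. Here too an effect on resting levels cannot be told apart from one on the KLA response. Mrc1 rose from 46.7 and 52.4 CPM in DMSO_KLA to 99.8 and 88.7 in TBK1i_KLA (0.93 ± 0.07, adjusted p = 2.67e-39), short of the 190.1 and 187 CPM of DMSO_Veh. Klf4 fell from 19.2 and 18.97 to 5.71 and 4.62 CPM (-1.88 ± 0.18, adjusted p = 1.77e-24). Ccl24 rose from 6.96 and 9.95 to 20.2 and 24.6 CPM (1.41 ± 0.17, adjusted p = 1.75e-15), although DESeq2 gave 1.43 with an adjusted p of 0.288. Egr2 was at 19.6 and 17.7 against 23.9 and 25.4 CPM (-0.40 ± 0.12, adjusted p = 0.00193, under the fold threshold), and Ccl17 at 13.1 and 12.4 against 12.6 and 11.5 (0.09 ± 0.18, adjusted p = 0.709). Pdcd1lg2 was not tested there. It had 9 and 18 counts in DMSO_KLA and 0 and 3 in TBK1i_KLA, at least 4.81-fold lower. Klf4 was thus lower than its KLA control in all 3 of these perturbations, each in a table with its own controls. The 4 fibroblast markers summed to 23.8 to 27.2 CPM in TBK1i_KLA and 35.9 to 38.6 in DMSO_KLA. Of lists that were higher in TBK1i_KLA, the 7 macrophage markers, which include Lyz2, summed to 19201 to 19588 against 15030 to 15222 CPM. The 5 dendritic cell markers summed to 6.51 to 7.89 against 3.47 to 3.64 CPM. The 4 T cell markers, 1 of them above the floor, summed to 5.61 to 6.09 against 1.73 to 1.77. The part of these lists was not tested.

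**Figure D4:**
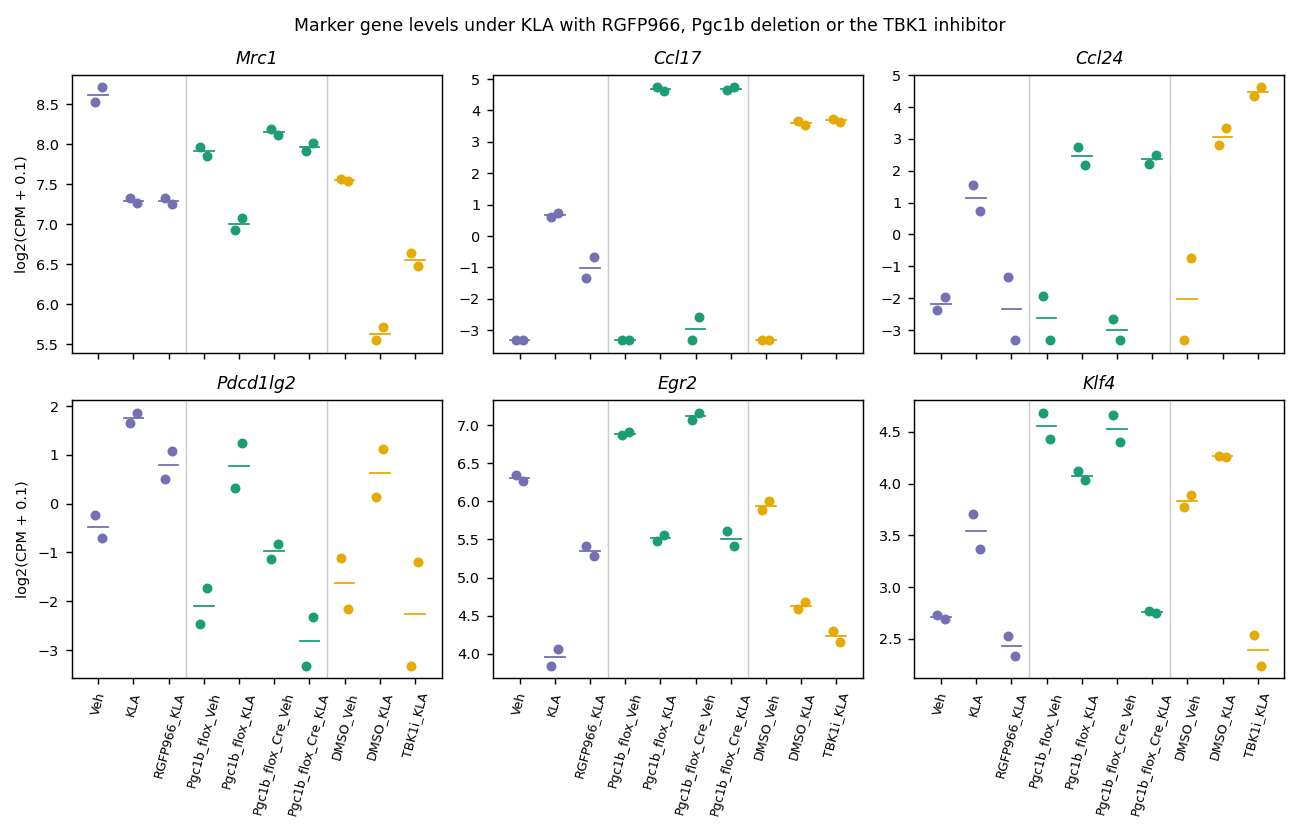
Levels of the 6 genes with appreciable counts in the 3 tables without IL4, 1 panel per gene, with groups on the horizontal axis and log2(CPM + 0.1) on the vertical axis. Points are libraries and lines are means of 2, coloured by table (RGFP966 purple, Pgc1b green, TBK1 inhibitor yellow), and scales differ between panels. Klf4 is lower in RGFP966_KLA, Pgc1b_flox_Cre_KLA and TBK1i_KLA (4.62 to 6.71 CPM) than in the matching KLA groups (10.2 to 19.2 CPM).

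The order of levels within the WT and NKO table summarises each gene. Mrc1 ran from 2178 CPM in WT_IL4 and 1646 in NKO_IL4 down to 335 in NKO_RANKL, 257 in WT_Veh and, at the lower end, 67.9 in NKO_PolyIC, and only NKO_Veh, NKO_KLA and WT_KLA (154, 149 and 141 CPM) overlapped their neighbours. Egr2 ran from 416 CPM in NKO_IL4 and 317 in WT_IL4, through NKO_Veh, NKO_IFNb, NKO_RANKL and NKO_PolyIC, to 10.1 in WT_KLA, and the only neighbours to overlap were WT_RANKL and WT_Veh (53.9 and 52.3). The first 6 places of Egr2 were thus the 5 NKO groups outside KLA and WT_IL4. Klf4 had NKO_IL4 (81.7 CPM), WT_PolyIC (74.1), NKO_PolyIC (57.3) and WT_IL4 (56.1) at the top, of which the last 2 overlapped. Chil3 was led by NKO_RANKL, WT_RANKL, NKO_IL4 and WT_IL4 (228, 176, 79.7 and 70.2 CPM), none overlapping the next, and its other 8 groups overlapped in turn. Arg1 and Retnla were led by NKO_IL4 and WT_IL4, Pdcd1lg2 by the same 2 groups and then NKO_KLA, and Ccl17 and Ccl24 by NKO_KLA and WT_KLA.

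Across the 12 group means of that table, log2 CPM of the members correlated with each other to different degrees, which is given as a description over groups that share libraries and depth. Retnla correlated with Mrc1 at 0.92 and with Pdcd1lg2 at 0.89, and Arg1 with Mrc1 at 0.89. Ccl17 correlated with Ccl24 at 0.73 and with Egr2 at -0.61. Outside the 9, the genes with the most similar pattern by Pearson r were Cdh1 for Arg1 (0.972), Rab44 for Chil3 (0.962), Msx3 for Retnla (0.999), Irf4 for Mrc1 (0.975) and Edn1 for Ccl17 (0.989). For Ccl24 it was Hibadh (0.923), for Pdcd1lg2 Tarbp2 (0.957), for Egr2 Aifm2 (0.974) and for Klf4 Phldb1 (0.939).

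Other genes of the IL4 pathway were taken from 3 lists. Of 11 receptor and proximal signalling genes, 2 rose and 1 fell in WT_IL4 against WT_Veh, where 13.1% of all genes tested changed, with a median log2 fold change of 0.2 against -0.012 over all genes tested. The 2 that rose are feedback inhibitors of JAK and STAT signalling, Socs1 (143 ± 13.3 against 2.06 ± 0.574 CPM, mean ± SD, n = 2, adjusted p = 2.67e-32) and Cish (26.9 ± 2.25 against 0.172 ± 0.0491 CPM, adjusted p = 8.94e-30). The receptor chain Il13ra1 fell from 10.3 ± 3.65 to 2.57 ± 0.151 CPM (adjusted p = 2.81e-07). Il4ra and Stat6 themselves were not called (0.47 ± 0.14 and -0.33 ± 0.052). Of 10 transcription factors and chromatin enzymes, 6 rose and none fell, with a median of 1.71. Among them were Irf4, by 4.88 ± 0.13 (adjusted p = 1.4e-39), Batf3, by 4.03 ± 0.19 (adjusted p = 3.77e-25), Tfec, by 2.4 ± 0.1 (adjusted p = 2.43e-29) and Bhlhe40, by 2.35 ± 0.085 (adjusted p = 4.89e-21).

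Of 36 other IL4-responsive macrophage genes 35 were listed and 31 tested, of which 18 rose and 2 fell in WT_IL4, with a median of 0.86. The largest changes included Tmem26 (168 ± 0.819 against 1.89 ± 0.526 CPM), the lectin Mgl2 (7.0 ± 0.772 against 0.0684 ± 0.0967), the receptor Flt1 (115 ± 7.61 against 2.19 ± 1.06) and Socs2 (22.2 ± 2.17 against 0.446 ± 0.144). In NKO_IL4 against NKO_Veh the 3 lists had 3 higher and 1 lower, 7 higher and 0 lower, and 19 higher and 1 lower, where 12.1% of all genes tested changed, with medians of 0.08, 1.33 and 1.12 against -0.0034 over all genes.

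Between NKO_IL4 and WT_IL4, none of the 11 signalling genes, 1 of the 10 factors and 3 of the 31 others were called, against 4.24% of all genes tested, with medians of -0.15, 0.03 and -0.06 against 0 over all genes. Bhlhe40, a transcriptional repressor, was higher in NKO_IL4 (389 ± 10.2 against 195 ± 1.59 CPM, log2 fold change 1.00 ± 0.071, adjusted p = 1.93e-12). Mmp12, macrophage elastase, was higher (1.48 ± 0.057, adjusted p = 2.36e-27), as was Socs2 (0.68 ± 0.13, adjusted p = 4.51e-05), while Flt1 was lower (-0.69 ± 0.086, adjusted p = 3.08e-07). The interaction was called for 0 of 11, 1 of 10 and 2 of 31, against 0.604% of all genes tested, namely for Irf4 (1.18 ± 0.26, adjusted p = 0.00326), Olfm1 (0.78 ± 0.16, adjusted p = 0.00797) and Matk (-0.70 ± 0.099, adjusted p = 2.43e-06). At rest, NKO_Veh against WT_Veh gave 0 higher and 3 lower, 2 higher and 1 lower, and 3 higher and 5 lower in the 3 lists, against 6.21% of all genes tested that changed in either direction.

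**Figure D5:**
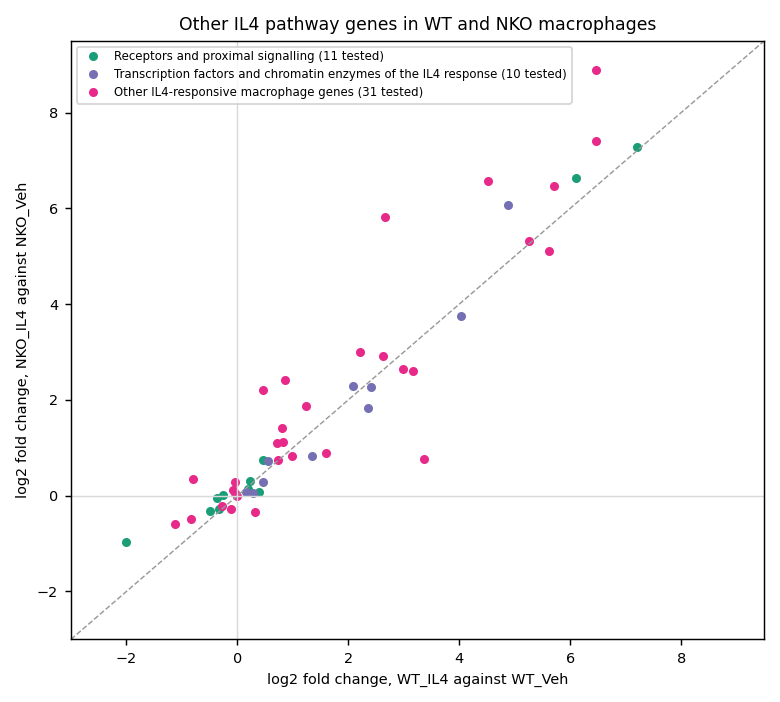
Log2 fold change of IL4 against vehicle in WT (horizontal axis) and NKO cells (vertical axis) for the tested genes of the 3 pathway lists, coloured by list, with the line of equal response dashed. Points are genes, and values of genes near the count floor depend on the fit. Cish and Socs1 (7.21 and 6.11 in WT) lie at the upper right, and Il13ra1 (-2.00 in WT) at the lower left.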

How the data were processed

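The authors deposited raw counts per gene in 4 tables. Per their methods, strand-specific reads were aligned to mm10 with STAR and counted over exons with HOMER, on the most abundant transcript, and versions are not given in the sources used here. The strand option of the counting is not given in the table headers. Groups came from the labels.

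Each table was fitted on its own in edgeR 4.0.16 (R 4.3.3, limma 3.58.1), with all its groups, filterByExpr, TMM scaling and robust quasi-likelihood F-tests. A call required a Benjamini-Hochberg adjusted p below 0.05 over all genes tested (13407, 12196, 12205 and 12332) and a fold change above 1.5. Of the 9 genes, 9, 7, 6 and 5 were tested in the WT and NKO, RGFP966, Pgc1b and TBK1 inhibitor tables, the rest having too few counts. A gene with at most 3 counts in every library of a group was at the floor, and its fold is given as a bound against 3 counts per library. Fold bounds and floors cover counting error only. Counts per library, 8323493 to 16783155, set the precision of low genes. RPKM used the length of the counted transcript. The SE of a log2 fold change was not taken from the fit but was its absolute value divided by the square root of the F statistic. Likeness was Pearson r over 12 group means of log2 CPM, with a prior count of 2, and the single nearest gene was named. Pathway genes were named by rule, up to 4 per list by the size of a called change among genes of at least 5 CPM in a group, and Il4ra and Stat6 were added after their values were seen. Promoters were RefSeq's. The scripts were tested on simulated counts. Alternatives were DESeq2 1.42.0, other scalings, filters, sets of groups and thresholds, a replicate block, and each library left out. The replicate numbers did not pair libraries, since the correlation of their deviations ran from -0.0596 to 0.0501 over 21 pairs of groups. The members and lists were chosen with earlier results of these data known.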

Additional observations from a re-analysis of the deposited data

Results flagged for a closer look

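Egr2 responded to IL4 to a different degree in the 2 genotypes by the interaction test: its log2 fold change in NKO cells minus that in WT cells was -0.97 ± 0.15 (edgeR's quasi-likelihood test, adjusted p = 0.00169). It rose in both, on average from 52.3 to 317.1 CPM in WT and from 134.1 to 415.6 CPM in NKO. The knockout thus started and ended higher, and the difference is one of fold change.

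Klf4 responded to PolyIC to a different degree in the 2 genotypes by the same test, with a difference of -1.21 ± 0.14 (adjusted p = 7.98e-09). Its level was higher with PolyIC than with vehicle in all 4 PolyIC libraries.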

How the results depend on the processing

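Over 24 counts of members called, 313 alternatives left 291 within 1.5 times the main count, and of 1550 alternatives for single genes 1491 kept direction and call. With no fold threshold the counts became 4 for NKO_IL4 against WT_IL4, 2 for the IL4 interaction, 1 for WT_IFNb against WT_Veh, 3 for NKO_PolyIC against WT_PolyIC and 2 for the PolyIC interaction. Library totals without TMM gave 1 for WT_IFNb and 2 for the PolyIC interaction, and no filter, the compared groups alone or the libraries of the shared stamp also gave 2 for the latter. A filter on a mean of 5 CPM, which tests fewer members, gave 3 for KLA against Veh, 2 for RGFP966_KLA against KLA and 3 for Pgc1b_flox_KLA against Pgc1b_flox_Veh. DESeq2 gave 3 for RGFP966_KLA. Leaving out 1 library at a time gave 1 to 2 for NKO_IL4 against WT_IL4, 0 to 1 for WT_IFNb, 1 to 2 for NKO_PolyIC, 1 to 3 for NKO_KLA, 1 to 2 for the PolyIC interaction and 3 to 5 for RGFP966_KLA, where the lone remaining library of a group is assumed to vary like the other groups. The causes were not tested.

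Of single genes, 10 alternatives changed a sign. Leaving out 1 library gave Ccl24 in NKO_IL4 against WT_IL4 values from -0.36 to 0.34, the Arg1 IL4 interaction -1.12 to 3.01, Klf4 in WT_KLA against WT_Veh -0.02 to 0.06 (with -0.01 without WT_KLA replicate 2), Chil3 in NKO_PolyIC against WT_PolyIC -2.32 to 0.23 and Pdcd1lg2 in NKO_RANKL against WT_RANKL -0.04 to 1.68. With library totals, Klf4 was 0.24 in WT_IL4 against WT_PolyIC, -0.71 in WT_KLA against WT_Veh and -0.34 in DMSO_KLA against DMSO_Veh, and with the 5 CPM filter it was 0 in WT_KLA.

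With the replicate number as a block, 0 of 146 results changed their call. The depth limits Ccl17, Ccl24 and Pdcd1lg2 in groups with few counts.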
